A study of Mus musculus with 2 samples.

Results

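Differentiating bipolar cells were examined in a single-cell RNA sequencing (scRNA-seq) experiment on whole retinas from mouse pups, taken on postnatal day 7. Cells were selected on their own measured transcripts: a cell needed at least 1000 unique molecular identifiers (UMIs, counts of original transcript molecules) outside mitochondrial genes and a UMI of at least 2 of the bipolar genes Grm6, Trpm1, Isl1, Grik1 and Gsg1. It was left out if it held 2 or more of the amacrine genes Tfap2a, Tfap2b, Gad1, Gad2, Slc32a1 and Slc6a9, or 2 or more of the rod genes Gnat1, Cnga1, Rp1, Impg1 and Rdh12. By this rule 151 of the 7103 cells analysed were bipolar cells, 118 of 3994 in the control (Ctrl) library and 33 of 3109 in the Mettl3-CKO library. Because detection of these 16 genes chose the cells, their levels are given as a description only.

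The study asked what the m6A modification of RNA does in retinal development, and removed its writer enzyme Mettl3 from retinal progenitor cells with Six3-Cre and a floxed Mettl3 allele (Mettl3-CKO). Each library pooled 2 retinas, 1 from each of 2 pups, and control and Mettl3-CKO pups came from the same litter. The exact control genotype is not given in the sources used here. The study describes efficient loss of Mettl3 in the central retina, whereas whole retinas were dissociated, so cells that kept Mettl3 can be among those labelled Mettl3-CKO. With 1 library per group there is no replicate and no test. The intervals below are 95% intervals that cover counting error only, exact except for ratios of shares, which use a log approximation. Genotype cannot be told apart from any other difference between the libraries.

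Bipolar cells carry the signal of photoreceptors to amacrine and ganglion cells. ON bipolar cells sense glutamate with the metabotropic receptor mGluR6 (Grm6), whose G protein closes the cation channel TRPM1, and the LIM homeodomain factor Isl1 is required for their maturation. OFF bipolar cells use ionotropic receptors, among them the kainate receptor subunit Grik1. Rod bipolar cells, an ON type, are known by protein kinase C alpha (Prkca). Bipolar cells are among the last neurons born in the retina, together with rods and Müller glia, and at this age are still wiring up. In GRCm38 annotation Grm6 lies at chr11:50850685-50866208, Isl1 at chr13:116298281-116309689, Grik1 at chr16:87895900-88290265 and Gsg1, which encodes a germ cell-associated membrane protein, at chr6:135237326-135254351.

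The bipolar cells had similar depth in both libraries, with a median of 7672.5 UMIs in Ctrl and 7753 in Mettl3-CKO, for 931872 and 272129 UMIs in all. All cells of at least 1000 UMIs had medians of 4830 and 5667. Mettl3 itself was at 39.7 CPM (the UMIs of a gene scaled to the same total in each set of cells; 37 UMIs) in control bipolar cells and 36.7 CPM (10 UMIs) in Mettl3-CKO bipolar cells, a log2 ratio of -0.11 with an interval of -1.28 to 0.92. Over all cells it was 39.4 and 32.6 CPM, a log2 ratio of -0.27 (-0.43 to -0.12). The exons that the floxed allele loses are not given in the sources used here, so a 3′ tag outside them would not check the genotype. Xist was found in 17 of 33 Mettl3-CKO bipolar cells and in 2 of 118 control bipolar cells, so the libraries also differed in the sex of their cells, and sex and genotype cannot be fully told apart. The median share of mitochondrial UMIs in bipolar cells was 4.60% and 2.94%. The libraries shared 5 cell barcodes.

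The cells carried bipolar transcription factors that the rule did not use. Otx2, which bipolar cells and photoreceptors both need, was detected in all 118 control and all 33 Mettl3-CKO bipolar cells, at 2604 and 2811 CPM. In Ctrl, 12 of 16 bipolar transcription factors were higher in the selected cells than in the rest, and the exceptions included Neurod1 and Crx, which photoreceptors express strongly. A list of 10 further rod genes summed to 561 CPM in control and 794 CPM in Mettl3-CKO bipolar cells, against 30162 CPM in control cells with at least 2 rod genes. Starburst amacrine, ganglion cell and microglial lists each summed to at most 11.0 CPM in either library. Cone genes summed to 761 and 959 CPM, mostly Gngt2 (618 and 911 CPM), and horizontal cell genes to 336 and 658 CPM, mostly Onecut2. Müller glial genes summed to 679 and 577 CPM, against 2389 and 2253 CPM in other cells. Of 5 Müller genes with at least 50 UMIs, 2 were at least 2-fold lower in Mettl3-CKO bipolar cells, beside 3.8% of all genes of that depth. These were Rlbp1 with 84 and 2 UMIs and Slc1a3 with 63 and 1. In the 43 control cells with Grik1 and no Isl1, 44 Rlbp1 UMIs lay in 5 cells and 14 Slc1a3 UMIs in 2. Of the other Müller genes, Apoe was also lower (171 and 95.5 CPM) and Sox9 was higher (210.3 and 309 CPM). The part of Müller transcripts in the other ratios was not tested. Of the amacrine genes used to leave cells out, the sum was 34.3 and 33.1 CPM in the bipolar cells.

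Beyond the list, the genes with the highest ratio of bipolar over other cells in the lower of both libraries were Pcp4, Tmem215, Fezf2, Zfhx3, Zfhx4, Cntnap5a, Sphkap, Epha7, Mmp2, Camk4, Cacna2d1 and Runx1t1. Pcp4, a small calmodulin-binding protein, was 45.6-fold higher in control bipolar cells than in the other control cells (648 against 14.2 CPM) and 38.0-fold higher in Mettl3-CKO (867 against 22.8 CPM). The homeobox gene Zfhx3 stood at 1033 CPM in control and 419 CPM in Mettl3-CKO bipolar cells, against 28.4 and 24.4 CPM in other cells. Since the cells were chosen on their transcripts, these ratios describe the cells and do not test them.

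Fewer cells met the rule in Mettl3-CKO. Bipolar cells were 3.33% of control cells of at least 1000 UMIs (118 of 3541; 2.77 to 3.98%) and 1.18% of Mettl3-CKO cells (33 of 2789; 0.816 to 1.66%), a ratio of 0.355 (0.242 to 0.521). Cells with at least 2 rod genes made up 26.3% and 25.3% (ratio 0.965, 0.887 to 1.05), and cells with at least 2 amacrine genes 3.39% and 4.09% (ratio 1.21, 0.938 to 1.55). Between 7000 and 10000 UMIs, 59 of 567 control cells (10.4%) but 15 of 544 Mettl3-CKO cells (2.76%) were bipolar. Between 3000 and 5000 UMIs the shares were 4 of 1220 and 4 of 804, with overlapping intervals, and below 3000 UMIs no Mettl3-CKO cell was found among 343, which allows a share of up to 0.875% (3 counts of the total; exact upper limit 1.07%).

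**Figure D1:**
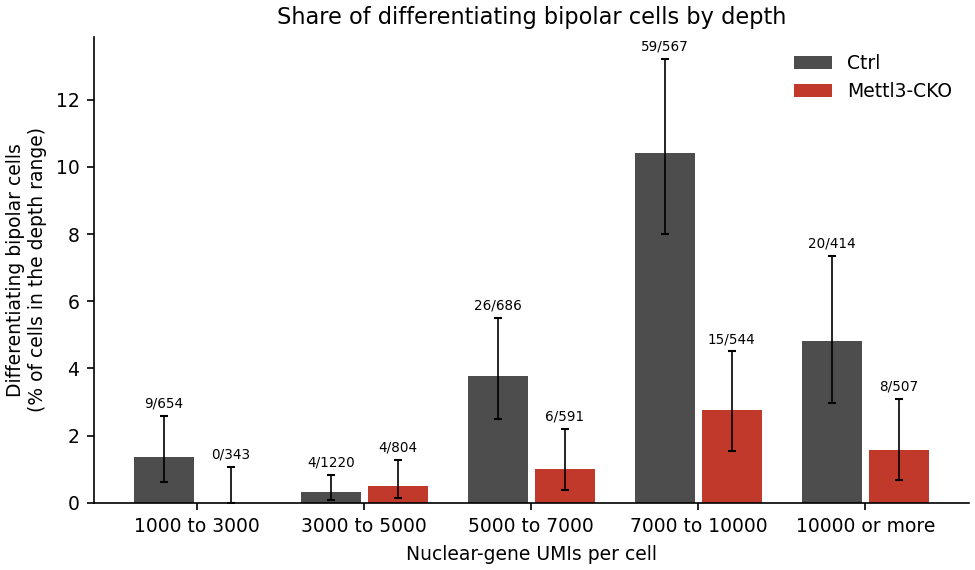
Share of differentiating bipolar cells (percent of cells, vertical axis) in 5 ranges of nuclear-gene UMIs per cell (horizontal axis), for Ctrl (grey) and Mettl3-CKO (red). Bars start at 0, error bars are exact 95% binomial intervals and labels give bipolar cells over all cells. The control share is the higher in every range except 3000 to 5000 UMIs, and is highest at 10.4% from 7000 to 10000 UMIs.

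Just outside the threshold, cells with exactly 1 bipolar gene and under 2 amacrine and 2 rod genes were 4.63% and 3.91% of cells. Just inside it, 92 of 118 control and 32 of 33 Mettl3-CKO bipolar cells held exactly 2 of the genes, while 3 or 4 were found in 26 control cells and in 1 Mettl3-CKO cell. Of the cells with at least 2 bipolar genes, the rod and amacrine genes removed 11 of 129 in Ctrl and 10 of 43 in Mettl3-CKO.

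ON cells, with both Isl1 and Grm6, were 34 of 118 control bipolar cells (28.8%, 20.8 to 37.9%) and 1 of 33 Mettl3-CKO bipolar cells (3.03%, 0.0767 to 15.8%). That 1 Mettl3-CKO cell held 1 UMI each of Isl1 and Grm6. It also held 4 UMIs of Fezf2 and 8 of Sall3, both at 0 in the control ON cells. Of genes higher in control ON cells, it held 3 UMIs of Gnb3 and 1 of Gnb5, but 0 of Prkca and Gpr179. Its ON label is therefore uncertain. OFF cells, with Grik1 and no Isl1, were 43 of 118 (36.4%, 27.8 to 45.8%) and 19 of 33 (57.6%, 39.2 to 74.5%). This split rests on detection, and Grm6 was also held by 10 of 43 OFF cells in Ctrl and by 2 of 19 in Mettl3-CKO. The other 41 control and 13 Mettl3-CKO cells were of neither kind, mostly cells with Isl1 and Grik1 alone (36 and 10 cells). As a share of all cells of at least 1000 UMIs, ON cells were 0.960% and 0.0359% (ratio 0.0373, 0.00511 to 0.273) and OFF cells 1.21% and 0.681% (ratio 0.561, 0.328 to 0.960). Cells with Grik1 and Gsg1 alone were 31 of 118 in Ctrl and 17 of 33 in Mettl3-CKO. A broader split, with ON as Isl1 or Grm6 and OFF as Grik1 without Isl1, Grm6 or Trpm1, gave ON shares of 72.0% and 48.5% and OFF shares of 26.3% and 51.5%.

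**Figure D2:**
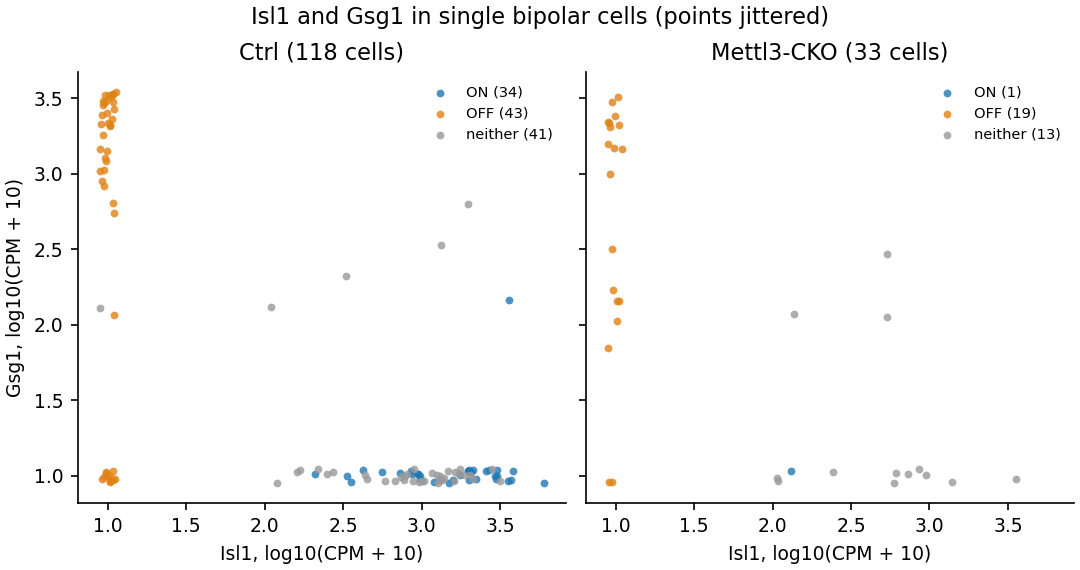
Level of Isl1 (horizontal axis) and Gsg1 (vertical axis) in each bipolar cell, as log10(CPM + 10), so a cell without the transcript sits at 1; points are jittered. Colours mark ON, OFF and other cells with their number. Isl1 and Gsg1 seldom share a cell in either library, and ON cells number 34 in Ctrl and 1 in Mettl3-CKO.

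The genes of the rule differed in the same way, which the choice of cells in part fixes. Grm6 gave 239 UMIs in 45 control cells and 8 UMIs in 3 Mettl3-CKO cells, or 256 and 29.4 CPM. Isl1 gave 939 UMIs in 74 control cells (1008 CPM) and 86 UMIs in 14 Mettl3-CKO cells (316 CPM). Among the cells that held it, Isl1 ran from 1 to 75 UMIs with a median of 9.5 in Ctrl, and from 1 to 25 with a median of 4.5 in Mettl3-CKO, so the cells overlapped. Among bipolar cells Trpm1 was seen in Ctrl only, with 24 UMIs in 6 cells, 11 of them in 1 cell, against 0 in 33 cells. Over all cells of at least 1000 UMIs, Trpm1 was found in 14 control and 7 Mettl3-CKO cells (ratio 0.635, 0.257 to 1.57), and the latter held no other bipolar gene. Grik1 was level between the libraries, at 279 and 276 CPM, in 102 and 30 cells. Gsg1 was at 479 and 636 CPM, in 37 and 20 cells. Over all cells of at least 1000 UMIs, Isl1 was detected in 6.16% (Ctrl) and 2.51% (Mettl3-CKO), and Gsg1 in 1.75% and 2.51%.

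Across all genes with at least 50 UMIs in the bipolar cells, 54 of 4505 (1.2%) were at least 2-fold higher in Mettl3-CKO and 171 (3.8%) at least 2-fold lower, with a median log2 ratio of -0.07. Of 16 transcription factors of bipolar development, 13 were measured at that depth, none was 2-fold higher and 3 were 2-fold lower, with a median log2 ratio of -0.03. Those 3 were Vsx1, Lhx3 and Bhlhe23. Vsx1, a homeodomain factor of cone bipolar cells located at chr2:150680702-150689360, gave 230 UMIs in 48 control cells and 12 UMIs in 5 Mettl3-CKO cells. Its level was 247 CPM (216 to 281) in Ctrl and 44.1 CPM (22.8 to 77.0) in Mettl3-CKO, a log2 ratio of -2.48 (-3.46 to -1.65). With each cell thinned to 3000 UMIs, Vsx1 was found in 29.4% of control and 6.06% of Mettl3-CKO bipolar cells, against 1.08% and 0.849% of the unthinned cells with at least 2 rod genes, at median depths of 4318 and 5048 UMIs.

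The LIM homeodomain factor Lhx3 gave 74 UMIs in 29 control cells and 3 UMIs in 1 Mettl3-CKO cell, a log2 ratio of -2.85 (-5.16 to -1.25). Bhlhe23, a basic helix-loop-helix factor needed by rod bipolar cells, gave 116 UMIs in 64 cells and 10 UMIs in 6 cells, a log2 ratio of -1.76 (-2.86 to -0.83). Other factors of the list were close to level or higher in Mettl3-CKO. Otx2 had a log2 ratio of 0.11 (-0.01 to 0.23), Neurod4 of -0.03 (-0.26 to 0.20) and Crx of -0.08 (-0.47 to 0.29). Lhx4, the paralog of Lhx3, was at 790 CPM in Ctrl and 1069 CPM in Mettl3-CKO, a log2 ratio of 0.44 (0.24 to 0.63). Neurod1, a proneural factor, and Fezf2, a zinc finger factor, had log2 ratios of 0.46 (0.21 to 0.70) and 0.55 (0.15 to 0.94).

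Measured genes of the ON signalling cascade were lower over all Mettl3-CKO bipolar cells. Of 10 cascade genes beside Grm6 and Trpm1, 5 were measured at 50 UMIs or more, all 5 were lower with intervals below equality and 3 were 2-fold lower, with a median log2 ratio of -1.33, beside 3.8% of all genes 2-fold lower. Gnao1, the G protein alpha subunit of mGluR6, was at 271 CPM in Ctrl and 169 CPM in Mettl3-CKO (log2 ratio -0.68, -1.17 to -0.23). Its beta subunit Gnb3 was at 823 and 522 CPM (-0.66, -0.93 to -0.40), and the gamma subunit Gng13 gave 53 UMIs in 12 control cells and none in Mettl3-CKO, whose level was at most 0.194 of the control level if 3 UMIs are taken as the limit of a count of 0. Gnb5, the partner of the RGS proteins that end the signal, was at 148 and 58.8 CPM (-1.33, -2.18 to -0.58). The orphan receptor Gpr179, which holds RGS proteins at the dendrite tip, gave 73 UMIs in 36 control cells and 3 UMIs in 2 Mettl3-CKO cells (-2.83, -5.14 to -1.23). The 5 remaining genes, Rgs7, Rgs11, Rgs9bp, Nyx and Lrit3, gave at most 21 UMIs each over both libraries, so differences were not detectable at this depth.

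ON and OFF cells of the control library, split on Isl1, Grm6 and Grik1, differed in many of the same genes, which is a description of cells chosen by their transcripts. Of 4673 genes with at least 30 UMIs over ON and OFF cells of both libraries, 201 (4.3%) were at least 2-fold higher in the control ON cells and 264 (5.65%) at least 2-fold lower. Prkca gave 62 UMIs in the 34 ON cells and 3 in the 43 OFF cells, or 220.1 and 10.1 CPM, and Gpr179 gave 52 and 2 UMIs. The peptide precursor Scg2 gave 57 and 4 UMIs, the axon guidance receptor Robo2 38 and 0, the lectin Chodl 37 and 3, and Gng13 32 and 3, 17 of the 32 in 1 cell. Gnb5, Gnb3 and Gnao1 were 4.35-fold, 2.85-fold and 2.77-fold higher in ON cells, and Bhlhe23 and Bhlhe22 4.01-fold and 4.29-fold higher. In OFF cells, Fezf2 gave 177 UMIs against 0 in ON cells, at least 55.9-fold higher with 3 UMIs taken in place of 0. Pcp4 was 26.8-fold higher in OFF cells (17.2 to 44.2; 1901 against 71.0 CPM) and the nuclear factor Nfib 19.1-fold higher (12.8 to 29.8). Meis2 and Sall3 gave 67 and 60 UMIs in OFF cells and none in ON cells, and so did Sox6 and the adhesion molecule Dscam, with 36 and 46 UMIs. Ttr also ranked among the OFF genes, with 213 UMIs against 0, but 129 of them came from 1 cell and only 3 cells held it.

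**Figure D3:**
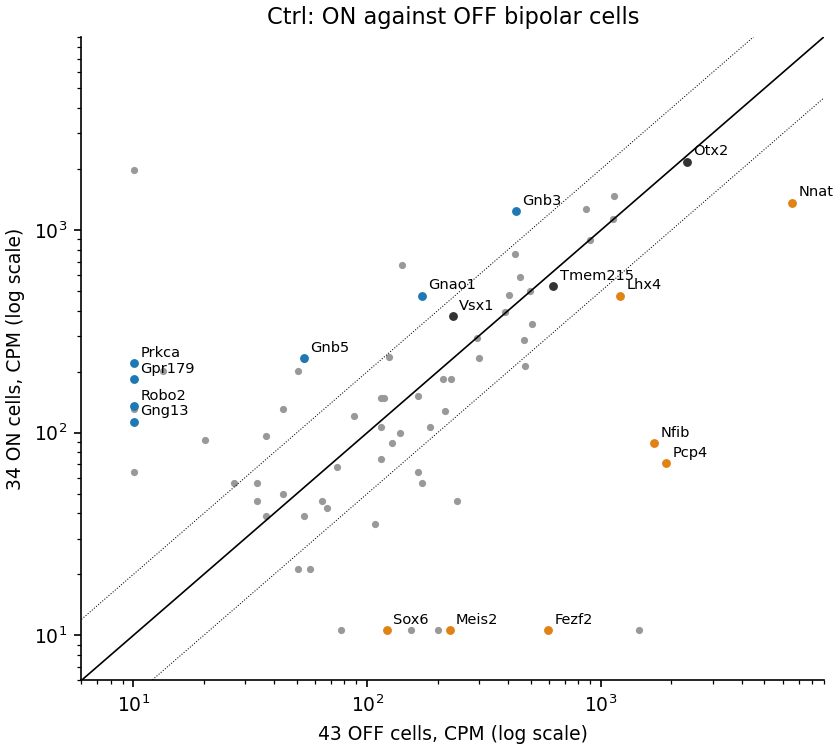
Levels of list and ranked genes in the 43 OFF cells (horizontal axis) and the 34 ON cells (vertical axis) of the control library, in CPM on log axes, with 3 UMIs in place of lower counts and Ttr left out. The solid line marks equal levels and the dotted lines 2-fold. Prkca, Gpr179 and Gng13 lie high on the ON side, Fezf2, Pcp4, Nfib and Meis2 on the OFF side, and Otx2 and Vsx1 between the dotted lines.

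Several OFF genes were also found at high levels in the 19 OFF cells of the Mettl3-CKO library. Fezf2 was at 596 CPM in control and 481 CPM in Mettl3-CKO OFF cells, Pcp4 at 1901 and 1422 CPM, Nfib at 1692 and 1791 CPM, and neuronatin (Nnat) at 6584 and 6438 CPM. Gsg1 was at 1460 and 1113 CPM in these cells. Sox6 was at 121 and 59.2 CPM (36 and 9 UMIs), Dscam at 155 and 85.6 CPM, and Ttr was not found in the Mettl3-CKO OFF cells. Lhx4 was level among OFF cells, at 1208 and 1178 CPM (log2 ratio -0.04, -0.30 to 0.23), and was higher in Mettl3-CKO within cells with Isl1, at 588 and 932 CPM (0.66, 0.35 to 0.97). OFF cells hold more Lhx4 and Nnat than ON cells (2.54-fold and 4.82-fold in Ctrl), and OFF cells took a larger share of the Mettl3-CKO bipolar cells, so ratios over all bipolar cells hold both the levels within a kind and the mix of kinds.

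Levels were therefore also compared within OFF cells (43 and 19 cells) and within cells with Isl1 (74 and 14 cells). Vsx1 was lower in both, at 233 and 58.2 CPM in cells with Isl1 (log2 interval -3.34 to -0.92). In OFF cells it was at 232 and 32.9 CPM (log2 ratio -2.82, -4.49 to -1.53). Most of its 69 control OFF UMIs lay in OFF cells that also held Grm6, 24 of them in 1 cell. Control OFF cells with Vsx1 and no Grm6 held 1 UMI each. The Mettl3-CKO OFF cells with Vsx1 held 2 and 3 UMIs and no Grm6. The 2 Mettl3-CKO OFF cells with Grm6 held no Vsx1. The lower level of Vsx1 in OFF cells thus rested on the cells with Grm6. The parts of their number and of their Vsx1 level were not tested. Lhx3 gave 34 and 3 UMIs in OFF cells and 35 and 0 in cells with Isl1. In cells with Isl1, Gnb3 and Gnb5 remained lower in Mettl3-CKO, at log2 ratios of -0.38 (-0.71 to -0.06) and -0.95 (-1.95 to -0.10), as did Gpr179 with 71 and 1 UMIs and Prkca with 88 and 2 UMIs. Gnao1 was lower in cells with Isl1 (-1.17, -1.98 to -0.45) but not in OFF cells (0.15, -0.56 to 0.84). Isl1 itself, among the cells that held it, was at 1500 CPM in Ctrl and 715 CPM in Mettl3-CKO. Grm6 was found in 34 of 74 control cells with Isl1 (45.9%) and in 1 of 14 Mettl3-CKO cells with Isl1 (7.14%, 0.181 to 33.9%).

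The genes outside the rule with the highest ratio of Mettl3-CKO over Ctrl, among 2318 that could be ranked, were Xist, Meis2, Mmp2, Sall3, Tmem158, Rps27rt, Slitrk6 and Onecut2. Onecut2, a cut homeobox factor known from horizontal cells, was at 260 CPM in Ctrl and 610.0 CPM in Mettl3-CKO (log2 ratio 1.23, 0.94 to 1.52), in 88 and 28 cells. It was higher within OFF cells (1.44, 0.93 to 1.96) and within cells with Isl1 (1.32, 0.93 to 1.69) alike, while in all other cells it stood at 90.4 and 118 CPM. Meis2, a homeodomain factor, was at 75.1 and 298 CPM (1.99, 1.51 to 2.47), and within OFF cells, where most of its UMIs lay, at 225 and 500.3 CPM (1.15, 0.66 to 1.65). Cells other than bipolar cells held more Meis2, at 449.8 and 466 CPM. Mmp2, a matrix metalloproteinase, was at 65.5 and 217 CPM (1.73, 1.19 to 2.27), and 3.35 and 17.0 CPM in all other cells. Sall3 and Tmem158 were higher over all bipolar cells (67.6 and 191 CPM, 82.6 and 213 CPM), but within OFF cells their intervals spanned equality (0.52, -0.07 to 1.11 and 0.32, -0.42 to 1.03). Rps27rt, a retrogene copy of a ribosomal protein gene, can share reads with its parent gene and is uncertain.

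The genes with the lowest ratio were Slit2, Otor, Ndnf, Vsx1, Crym, Car10, Klhl5 and Bhlhe23. The guidance ligand Slit2 gave 98 UMIs in 32 control cells and 4 UMIs in 3 Mettl3-CKO cells (log2 ratio -2.84, -4.74 to -1.44). Car10, an inactive carbonic anhydrase homolog of the cell surface, was at 353 and 77.2 CPM (-2.19, -2.91 to -1.56). The secreted factor Ndnf gave 138 and 7 UMIs (-2.53, -3.87 to -1.44). Otor gave 158 and 7 UMIs, but 55 of the control UMIs came from 1 cell. Crym gave 114 and 7 UMIs, with 35 in 1 control cell. It was detected in 18 control and 7 Mettl3-CKO bipolar cells (15.3% and 21.2%), so detection went the other way. In all other cells Crym was at 672 and 355 CPM, above its level in bipolar cells and also lower in Mettl3-CKO. Leaving out Xist, all 15 of these genes kept their direction within OFF cells and within cells with Isl1, which are the same cells that ranked them. Their intervals stayed on that side of equality for 5 of 7 higher and 6 of 8 lower genes in OFF cells. They did so for 7 of 7 and 8 of 8 in cells with Isl1, where the Mettl3-CKO UMIs of Meis2 (5) and Sall3 (8) came from 1 cell each. For Sall3 it was the 1 Mettl3-CKO cell labelled ON. Neither set was of 1 kind alone. Grm6 was held by 10 of 43 control and 2 of 19 Mettl3-CKO OFF cells, and by 34 of 74 and 1 of 14 cells with Isl1. The mix of cells with and without Grm6 can therefore still enter these ratios, and its part was not tested.

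**Figure D4:**
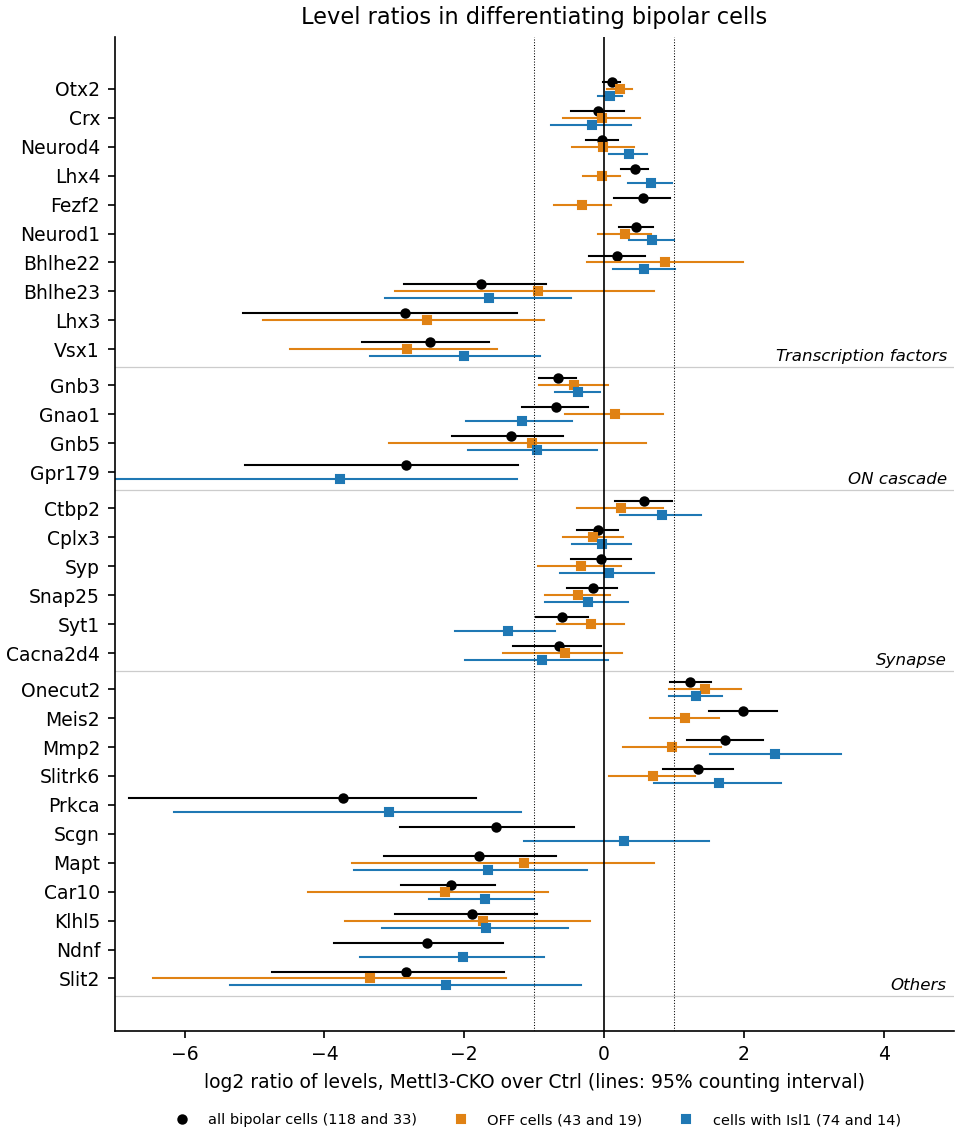
Log2 ratio of levels, Mettl3-CKO over Ctrl (horizontal axis), for named genes grouped by role, in all bipolar cells (black), OFF cells (orange) and cells with Isl1 (blue); lines are 95% counting intervals, cut at the axis ends, and dotted lines mark 2-fold. A point is drawn for cells of a kind only where both libraries held a UMI and their sum was at least 15. Vsx1, Car10 and Slit2 lie left of 0 and Onecut2 and Mmp2 right of 0 in all 3 sets.

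Among subtype markers, 6 of 22 were measured at 50 UMIs or more, none was 2-fold higher and 2 were 2-fold lower in Mettl3-CKO. Over all genes of that depth the shares were 1.2% and 3.8%. Prkca gave 91 UMIs in 37 control cells and 2 UMIs in 2 Mettl3-CKO cells (log2 ratio -3.73, -6.80 to -1.84). The calcium-binding protein Scgn gave 70 and 7 UMIs (-1.55, -2.91 to -0.43). All 7 of the latter lay in cells with Isl1, where the levels were 47.9 and 58.2 CPM, while OFF cells gave 34 and 0 UMIs. Tmem215 was level over all bipolar cells, at 449 and 456 CPM, and lower within cells with Isl1 (-1.28, -2.06 to -0.58). Of 9 other ionotropic glutamate receptor genes and their partners, 3 were measured and their intervals all spanned equality: Gria2 (-0.46, -1.29 to 0.28), Grik5 (-0.29, -1.45 to 0.72) and Neto2 (0.15, -0.87 to 1.09). Receptors for the inhibitory input from amacrine cells were likewise close, with 4 of 8 measured, none past 2-fold and a summed level of 435 and 441 CPM. The GABA receptor rho subunit Gabrr1 was 3.03-fold higher in OFF than in ON control cells.

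Genes of the synapse, of neurites and of adhesion were mostly within 2-fold. For comparison, 2566 of all 4505 measured genes were lower in Mettl3-CKO, and 3.8% were at least 2-fold lower. Of 17 genes of the ribbon synapse and of transmitter release, 10 were measured, 9 were lower and 1 higher, none was past 2-fold and the median log2 ratio was -0.14. The ribbon component Ctbp2 was higher (0.57, 0.16 to 0.98), the calcium sensor Syt1 was lower (-0.60, -0.98 to -0.23), and so was the calcium channel subunit Cacna2d4 (-0.65, -1.30 to -0.05). Complexin Cplx3, Syp, Snap25 and Vamp2 had intervals that spanned equality. Of 11 neurite genes, 6 were measured, 4 were lower and 1 was past 2-fold, the microtubule-associated protein Mapt, with 83 UMIs in Ctrl and 7 in Mettl3-CKO (-1.79, -3.15 to -0.69). Mapt was also higher in ON than in OFF control cells (131 against 43.7 CPM). The neuronal tubulin Tubb3 was slightly higher (0.23, 0.04 to 0.41). Of 10 adhesion genes, 5 were measured, 4 were lower, none past 2-fold, and Nrxn3 was lower at 1120 and 838 CPM (-0.42, -0.63 to -0.21).

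Genes of neurogenic precursors showed no common direction, with 4 of 7 measured genes higher, 3 lower and none past 2-fold. Insm1 was higher (0.55, 0.24 to 0.85), whereas Hes6 (-0.15) and Btg2 (0.07) had intervals that spanned equality. Neurog2 gave 18 UMIs in 11 control cells and 22 UMIs in 4 Mettl3-CKO cells, 17 of them in 1 cell. Atoh7, a factor of early neurogenic cells, gave 10 UMIs in 7 Mettl3-CKO cells and none in Ctrl, and its level in all other cells was 17.3 and 46.0 CPM, so it was also higher outside the bipolar cells. Of 10 further rod genes, 5 were measured and all were higher, beside 1939 of all 4505 measured genes. Past 2-fold, beside 1.2% of all measured genes, were 3: Nrl (1.18, 0.50 to 1.84), Nr2e3 (1.10, 0.51 to 1.68) and Sag (44.0 and 88.2 CPM, 0.21 to 1.76). Within OFF cells the intervals of all 3 spanned equality, at log2 ratios of 0.44, -0.42 and -0.03. Within cells with Isl1, Sag was higher (1.88, 0.68 to 3.03), with 12 Mettl3-CKO UMIs in 3 cells. For Nr2e3, 23 of 42 Mettl3-CKO UMIs and 22 of 67 control UMIs came from 1 cell each, and without the cells of highest doublet score its log2 ratio was -0.44. The part of rod transcripts was likewise not tested.

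The 8 m6A-tagged transcripts that the study tested (Apex1, Sulf2, Zfp292, Rap2b, Ckap4, Traf4, Nxt1 and Bcl7a) were all somewhat higher in Mettl3-CKO bipolar cells. The study picked them from these same libraries, so their direction is not independent evidence. The median log2 ratio of the 7 with at least 50 UMIs was 0.32, against -0.07 over all genes of that depth, and none of the 7 was past 2-fold. The median over all 8 was 0.63 within OFF cells, where Apex1 (1.19, 0.45 to 1.94), Bcl7a (1.01, 0.31 to 1.71) and Traf4 (1.17, 0.24 to 2.11) lay above equality, and 0.07 within cells with Isl1. Traf4, a signalling adaptor, was the only one of these 7 whose interval lay above equality (94.4 and 147 CPM; 0.64, 0.06 to 1.19). Sulf2, an extracellular sulfatase, gave 23 UMIs in each library, or 24.7 and 84.5 CPM (1.78, 0.88 to 2.68). Summed over the 8 genes the level was 1027 and 1345 CPM in bipolar cells and 840.0 and 1242 CPM in all other cells. Of 7 m6A writer genes 3 were measured, Wtap (0.15, -0.44 to 0.71), Zc3h13 (0.15, -0.37 to 0.64) and Cbll1 (42.9 and 44.1 CPM), and their intervals spanned equality. Of 13 p53 targets, 3 were measured, Mdm2, Bax and Trp53inp1, and their intervals spanned equality, but Cdkn1a gave 3 UMIs in 3 control cells and 46 UMIs in 5 Mettl3-CKO cells, with 20 in 1 cell. In all other cells Cdkn1a was at 17.8 and 97.8 CPM.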

How the data were processed

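Per the labels and methods, the authors digested whole retinas with papain, built 10x Genomics 3′ libraries (V3.1 kit), trimmed reads with fastp and aligned them to GRCm38 (mm10). The submitters' processing notes name Cell Ranger 3.1.0 and Seurat 3.1. The deposited values are raw UMI counts per gene and cell, not normalized. The matrices read here ended early, so 3994 of 5995 control and 3109 of 6992 Mettl3-CKO cells, in barcode order, were complete; the rest were not analysed here. Libraries were not replicated, and no test was run.

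Counts were summed over cells and divided by all non-mitochondrial UMIs (CPM). Intervals at 95% are exact Poisson for levels, Clopper-Pearson for shares, conditional binomial (exact) for level ratios and Katz log for share ratios (Python 3.11.15, scipy 1.17.1). Free RNA was not removed. Doublets were not removed; leaving out the highest 5% of Scrublet scores (scanpy 1.11.5) was an alternative. The ratio code was tested on simulated data. Gene positions are from GENCODE vM21, where all 257 looked-up genes matched by ID.

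The bipolar cells, gene lists and alternatives were chosen with earlier results of these data known. Genes named are those of the lists, the 8 highest and 8 lowest ratios between libraries (at least 100 UMIs, a UMI in 10% of the bipolar cells of 1 library, same direction under median-of-ratios scaling), the 12 highest ratios over other cells (at least 50 UMIs in each library) and the 6 highest and 6 lowest ON over OFF ratios. The last were to share their direction in both libraries, but Mettl3-CKO had 1 ON cell, so they were ranked in Ctrl alone. Some list genes, and a comparison that needs them, are not reported here.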

Additional observations from a re-analysis of the deposited data

Results flagged for a closer look

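Xist, the transcript of the inactive X chromosome, had the highest ratio of Mettl3-CKO over Ctrl among the ranked genes. It was at 1881 CPM in Mettl3-CKO bipolar cells (512 UMIs in 17 of 33 cells) against 2.15 CPM in control bipolar cells (2 UMIs). The Y-linked genes Eif2s3y and Ddx3y gave 14 and 12 UMIs in the 16 Mettl3-CKO bipolar cells without Xist, and 2 and 0 in the 17 with it. Isl1 was at 260 CPM in the cells with Xist and 370 CPM in those without, Gsg1 at 744 and 530.0 CPM, and Onecut2 at 722 and 501 CPM. Of the 46 Cdkn1a UMIs, 44 lay in cells without Xist.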

How the results depend on the processing

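The ratio of bipolar shares stayed between 0.293 and 0.441 under 6 of the 7 alternatives given here and was 0.0488 with at least 3 bipolar genes, where 26 control cells and 1 Mettl3-CKO cell were left, gene levels were not run, and the control ON and OFF shares became 100% and 0%. The broader split gave ON shares of 72.0% and 48.5% and a control OFF share of 26.3%. Thinning each cell to 1000 UMIs left 39 and 9 cells, with ON shares of 41.0% and 0% and a Mettl3-CKO OFF share of 88.9%. Genes past 2-fold, higher and lower, numbered 14 and 48 at 100 UMIs or more and 210 and 553 at 20 or more. At a fold of 1.5 the counts were 283 and 547 of the same 4505 genes. They were 82 and 312 with Mettl3-CKO cells without Xist at 4000 UMIs or more, and 21 and 49 in OFF cells. The number of genes tested changed with the UMI limit and the set of cells. Apart from those at a fold of 1.5, these counts therefore cannot be compared as shares with the main 54 and 171 of 4505. With Mettl3-CKO cells limited to those without Xist, and both libraries to 4000 UMIs or more, the Mettl3 log2 ratio in bipolar cells was -1.40. It rested on at most 16 Mettl3-CKO bipolar cells and few UMIs, so it does not check the genotype. Over all cells in that setting the Mettl3 log2 ratio was -0.38. In cells with Isl1, the median of the m6A-tagged genes was 0.072. Reversed log2 ratios were those of Nr2e3 (-0.44 without the highest doublet scores, -0.91 in cells without Xist, -0.42 in OFF cells), Gpr179 (0.97, OFF cells), Sag (-0.032, OFF cells) and Scgn (0.28, cells with Isl1). Gpr179 gave only 2 UMIs in the OFF cells of each library, with an interval of -2.82 to 4.75. The intervals of Sag and Scgn in these sets also spanned equality. The cause was not tested, though the subsets hold fewer cells. Comparisons within OFF cells or cells with Isl1 and without the exclusions were chosen after seeing the data. No paired analysis was possible because each group has 1 library. With 33 Mettl3-CKO cells, genes under 50 UMIs have wide intervals and were left out of the counts.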
